A study of Capra hircus with 3 samples.

Results

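Solute carriers, ABC transporters and aquaporins were examined in the skin of Arbas Cashmere goats kept under a short or a natural photoperiod. A probe was counted as a member when its name on the array began with SLC, ABC or AQP, or when its description held the words solute carrier, ATP-binding cassette, aquaporin, glucose transporter or amino acid transporter. This gave 75 probes for 54 genes, of 15008 non-control probes on the array. Of the 75 probes, 12 carried only the name of a sequence cluster on the array and were recognised by their description. The rule reads names and descriptions and no measured values, but the members were chosen with earlier results of these data known. The animals were 6 female goats of 2 years, 3 in each group. Goats of the short photoperiod group grazed in daylight for part of the day and spent the rest of it in a dark shed, slightly cooler than outdoors, and the control goats grazed under natural conditions, which the sample titles call long photoperiod. Skin was taken from one side of the body, and each of 3 sheep arrays held the RNA of 1 short photoperiod goat in Cy5 and of 1 natural photoperiod goat of the same parent in Cy3. Whole skin mixes cell types, so fewer cells of a type and less RNA per cell cannot be told apart in any value below.

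Carriers and channels decide which nutrients and ions enter a skin cell. Solute carriers move amino acids, sugars, metals and ions, either down their gradients or coupled to another ion, and aquaporins let water and in some cases glycerol pass. ABC transporters use ATP to pump peptides, lipids and drugs. The growing hair follicle is a heavy user of glucose and amino acids, since its matrix cells divide quickly and the hair shaft is made of keratin.

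The sequences of 8 probes are shown because the comparisons of LAT2, AQP5, AQP1 and ABCB1 rest on how far the probe pair of a gene is a repeat of 1 measurement. Each is a 60-mer from a sheep record, the capitals mark the bases shared by the pair, and start positions count from the first base of that record. No chromosome position is given for these probes in the array files. The LAT2 probes start at bases 266 and 273 and share 53 bases.

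LAT2 first probe: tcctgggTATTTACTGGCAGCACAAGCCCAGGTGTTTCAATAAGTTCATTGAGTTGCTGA

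LAT2 second probe: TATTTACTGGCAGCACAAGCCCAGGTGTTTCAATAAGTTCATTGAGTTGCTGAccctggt

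The AQP5 probes start at bases 408 and 409 and those of AQP1 at bases 762 and 763, and each pair shares 59 bases.

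AQP5 first probe: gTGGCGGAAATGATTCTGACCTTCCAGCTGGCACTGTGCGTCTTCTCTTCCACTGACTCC

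AQP5 second probe: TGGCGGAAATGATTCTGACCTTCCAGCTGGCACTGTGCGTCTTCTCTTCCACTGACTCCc

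AQP1 first probe: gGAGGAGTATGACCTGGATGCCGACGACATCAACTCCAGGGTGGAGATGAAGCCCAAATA

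AQP1 second probe: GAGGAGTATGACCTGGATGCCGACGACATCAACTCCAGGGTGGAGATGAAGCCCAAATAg

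The ABCB1 probes start at bases 3025 and 3045 and share 40 bases.

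ABCB1 first probe: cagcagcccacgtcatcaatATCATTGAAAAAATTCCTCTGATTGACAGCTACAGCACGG

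ABCB1 second probe: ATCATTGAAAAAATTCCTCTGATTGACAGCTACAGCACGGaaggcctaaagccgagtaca

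Each ratio below is the log2 ratio of Cy5 over Cy3 after normexp background correction and loess normalization, so a value above 0 means more signal under the short photoperiod, and errors are SD over 3 arrays. Levels are log2 normalized intensities of each goat, and the level of one probe cannot be set against that of another. The median signal of the arrays was 4587 to 7120 in Cy5 and 2688 to 3911 in Cy3, with 0 saturated spots. Dyes were swapped on 0 arrays, and a ratio therefore includes any preference of its probe for one dye. The slope of the spike-in controls was 0.622 to 0.629, so known ratios were understated. Among marker lists of skin cell types, the 3 tested keratinocyte probes (KRT14 and TP63) had mean log2 ratios of 0.68 to 0.98, and all 9 leukocyte probes were lower, at -1.09 to -0.31. Leukocytes were not alone in this. The median was -0.41 for fibroblast probes (2 higher, 3 lower) and -0.37 for adipocyte probes (2 higher, 4 lower). It was -0.16 for sebaceous probes (1 higher, 3 lower), -0.18 for melanocyte probes (4 lower) and -0.23 for erythroid probes (2 lower). No gene of the endothelial, skeletal muscle or hair shaft lists was found on the array by its name. The paper lists hair keratins and an inner root sheath keratin, under other gene symbols, as raised under the short photoperiod. These were not examined here.

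Of the 75 transporter probes, 67 were well above background in both dyes on all 3 arrays, against 90.5% of all probes. All 11 sugar, 8 metal, 8 water and 11 mitochondrial carrier probes were measured in this way. Of the amino acid probes 10 of 13 were, of the ABC transporter probes 6 of 7, and of the ion probes 2 of 6. The probe of SLC34A1, a phosphate carrier of the kidney, was above background in 0 of 6 measurements. The remaining 7 probes were above background in some measurements. They were both probes of SLC9A3, a sodium and proton exchanger of kidney and gut, both probes of EAAT1, a glutamate carrier, and single probes of the bicarbonate carrier SLC4A4, the arginine and lysine carrier CAT-1 and the chloride channel CFTR. Each of these 7 was above background on at least as many arrays in Cy3 as in Cy5, and no ratio is given for them below.

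**Figure D1:**
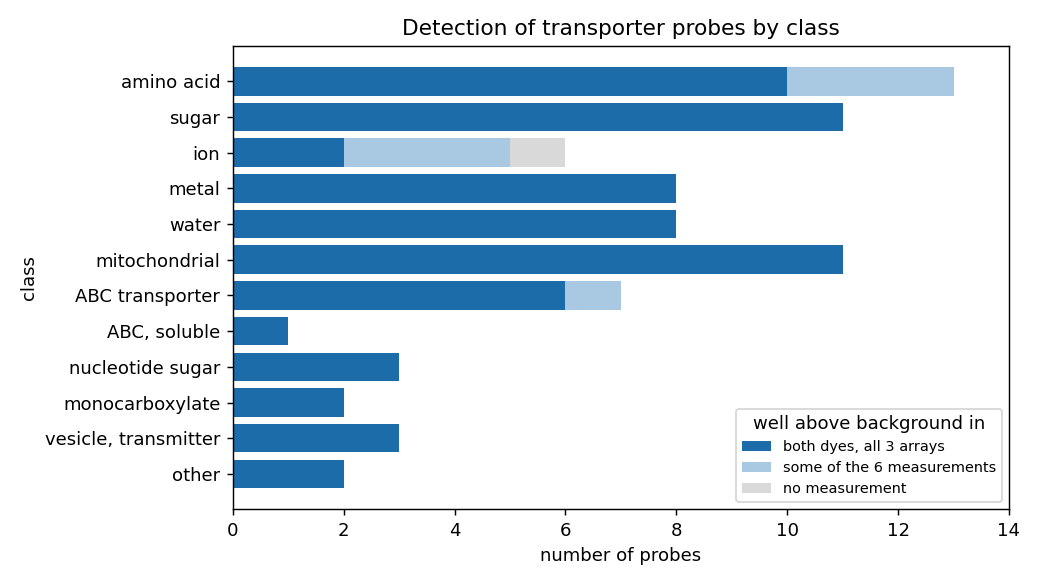
Number of transporter probes (horizontal axis) in each class (vertical axis), split by how many of the 6 measurements (3 arrays with 2 dyes) were well above background. In the ion class 2 of 6 probes were measured throughout, and in the sugar, metal, water and mitochondrial classes all were.

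No transporter probe passed limma's test at an adjusted p of 0.05. The adjusted p lay between 0.155 and 0.972, and 0.00668% of all probes, a single one, passed. With each array centred on its median in place of loess 11 were called, 14.7% beside 12.6% of all probes, and with the channels fitted as separate samples 2 were, 2.67% beside 1.1%. The mean was at least 2-fold higher for 1 transporter probe, of LAT2, against 0.427% of all probes, and at least 2-fold lower for 0, against 0.414%. Without replicate 1 there were 3 such probes (LAT2 and SLC40A1 higher, TAP1 lower), beside 0.719% of all probes higher and 1.2% lower. Without replicate 2 there were 0, beside 0.651% and 0.745%, and without replicate 3 there were 2 (LAT2 higher, SLC11A1 lower), beside 0.536% and 0.516%. The unadjusted p was under 0.05 for 11 higher and 11 lower probes of 75, beside 9.11% and 9.35% of all probes. On all 3 arrays 16 probes were higher and 20 lower, beside 21.6% and 22% of all probes, and the other 39 had mixed signs. The levels of all short photoperiod goats lay above those of all natural goats for 3 probes and below them for 9, beside 6.44% and 7.16% of all probes. Some genes enter these counts with both of their probes. With 1 probe for each of the 54 genes, the goats' levels lay above for 2 and below for 5. Limma's unadjusted p was then under 0.05 for 7 higher and 8 lower probes.

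The median log2 ratio of the 75 probes was -0.0081 and that of all tested probes was -0.0067. Their median size of change, with the sign left off, was 0.20 and that of all tested probes was 0.16. By class the median log2 ratio was 0.13 for mitochondrial carriers, 0.06 for amino acid carriers, 0.01 for ABC transporters, -0.03 for metal carriers, -0.05 for ion carriers, -0.20 for sugar carriers and -0.22 for aquaporins. The amino acid and ABC medians were -0.16 and -0.19 when each array was centred on its median in place of loess, so that their sign depends on the normalization. The sugar median was -0.092 without replicate 1 and -0.33 without replicate 3, and the mitochondrial median was 0.22 without replicate 2. Members lay on both sides of 0 in each of these 7 classes.

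**Figure D2:**
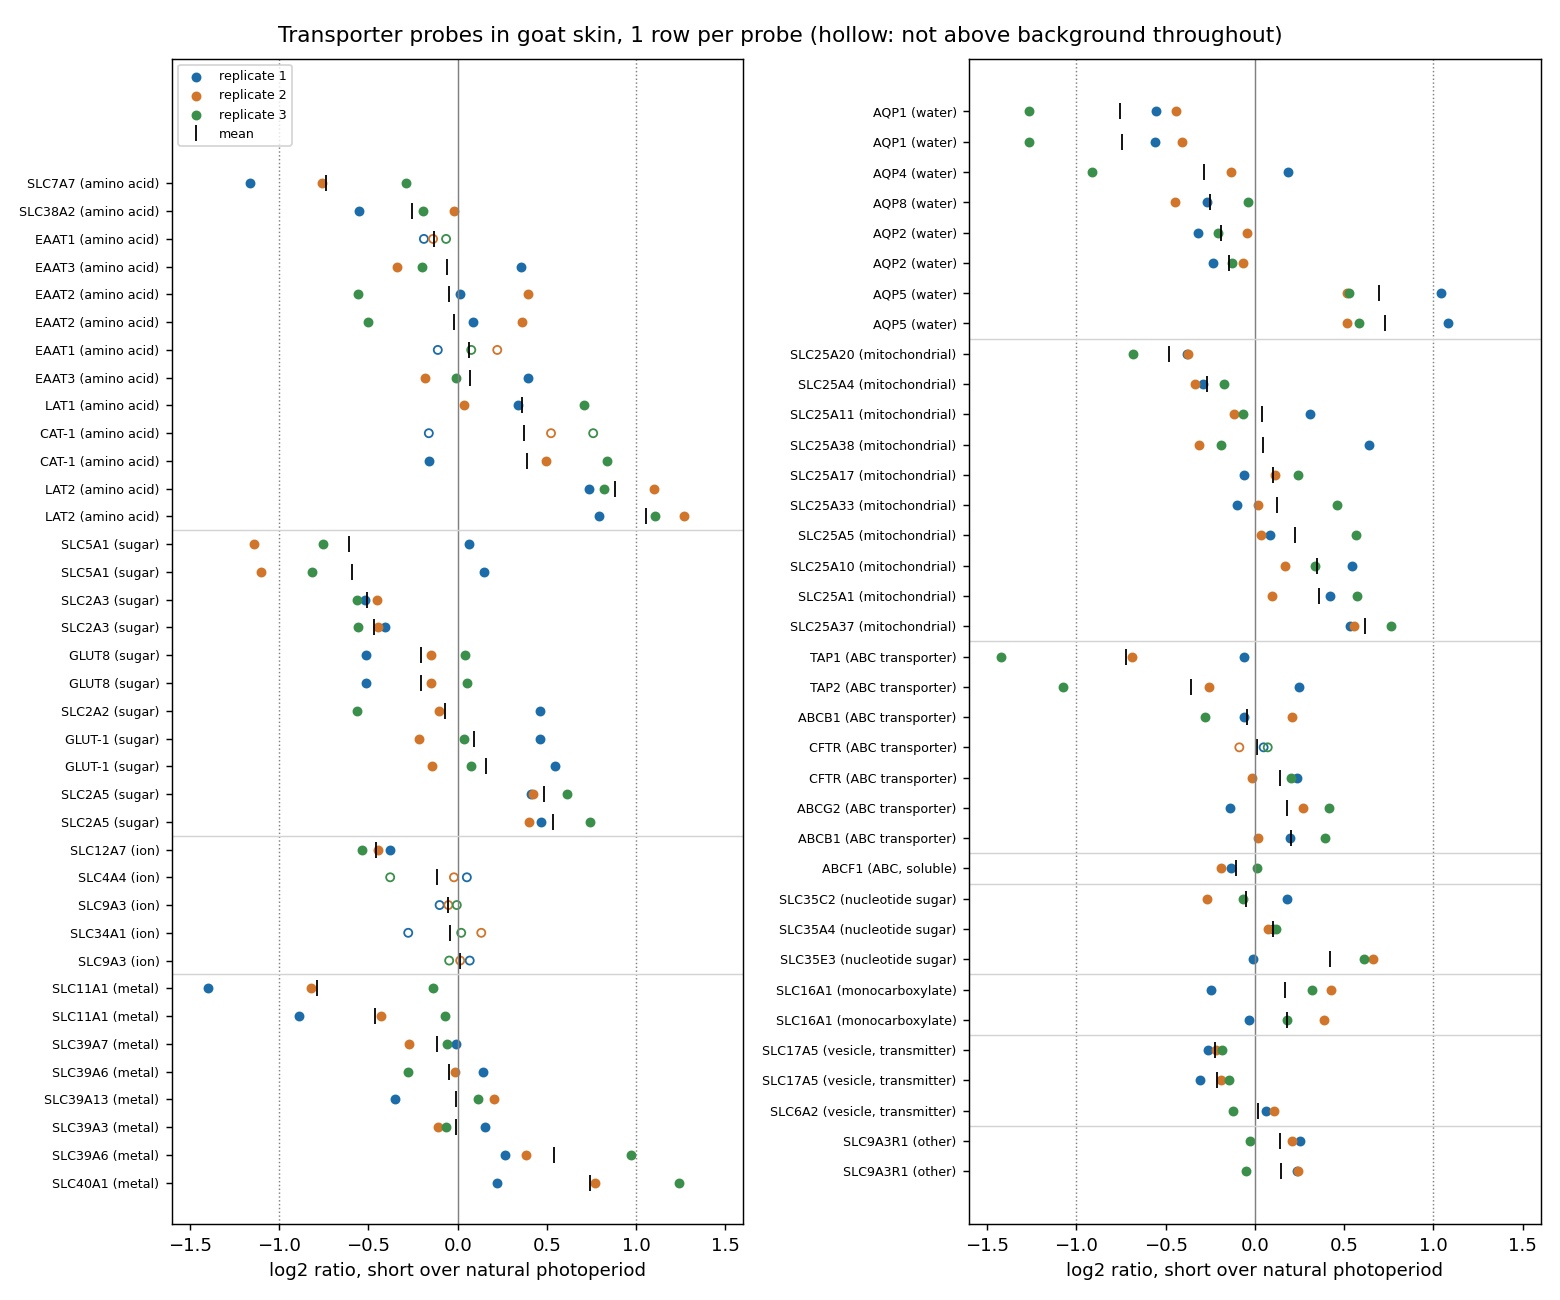
Log2 ratio of short over natural photoperiod (horizontal axis) of 73 of the 75 transporter probes (vertical axis, with its class), with a point per array and a bar at the mean. Dotted lines mark a 2-fold change and hollow points a probe that was not above background in all 6 measurements, and the mean passes a dotted line for 1 probe, of LAT2.

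Amino acid carriers held the probe with the highest mean of all transporters after loess, while with median centring SLC25A5 (1.00) was above it (0.90). LAT2 (SLC7A8) exchanges large neutral amino acids across the cell membrane. Its first probe had levels of 10.31, 10.58 and 9.86 in the short photoperiod goats of replicates 1, 2 and 3, and of 9.52, 9.31 and 8.75 in the natural goats. All short photoperiod goats were thus above all natural goats. The log2 ratios were 0.79, 1.27 and 1.10, a mean of 1.05 ± 0.24 (SD, n = 3) or 2.08-fold, with an adjusted p of 0.155 by limma. The second LAT2 probe gave 0.88 ± 0.19 (SD, n = 3), or 1.84-fold, and the groups again did not overlap. When both channels were fitted as separate samples that share a spot, limma's adjusted p of the probes was 0.0375 and 0.0295, and LAT2 was the only transporter gene called there. The paper also lists LAT2 as raised, from the same sequence record. It names the gene as a linker protein of T cell activation, while the array description placed it among the carriers.

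SLC7A7, which exports cationic amino acids and is found in epithelia and macrophages, was at the other end. Its level was 10.63, 10.66 and 10.79 in the short photoperiod goats and 11.80, 11.43 and 11.08 in the natural goats. The groups did not overlap, and the spread lay mostly in the natural goats. The mean log2 ratio was -0.74 ± 0.44 (SD, n = 3), or 1.67-fold lower, with an adjusted p of 0.187 by limma.

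LAT1 (SLC7A5), the relative of LAT2 that supplies leucine to dividing cells, had log2 ratios of 0.34, 0.04 and 0.71. Its mean of 0.36 ± 0.34 (SD, n = 3) was 0.027 under median centring. SLC38A2, which takes up small neutral amino acids together with sodium, had a mean of -0.26 ± 0.27 (SD, n = 3). The glutamate carriers EAAT2 and EAAT3, best known from the brain and the kidney, had means between -0.06 and 0.07 on 4 probes, with mixed signs on the arrays of each, and between -0.31 and -0.15 with median centring. The measured probe of CAT-1 (SLC7A1) had log2 ratios of -0.16, 0.50 and 0.83, and a mean of 0.39 that became -0.011 under median centring. The log2 ratios of the keratinocyte markers had array medians of 1.32, 1.12 and 0.26, and their mean log2 level was 11.24 to 11.94 in the short photoperiod goats against 10.42 to 10.97 in the natural goats. Their part in the amino acid values was not tested.

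Of the sugar carriers, 2 genes had the same direction on all 3 arrays on both of their probes. SLC2A3 (GLUT3) is a glucose carrier of high affinity that is abundant in neurons and white blood cells. Its level was 13.23, 13.59 and 13.38 under the short and 13.75, 14.04 and 13.95 under the natural photoperiod. The groups did not overlap. The log2 ratios of -0.52, -0.45 and -0.56 gave a mean of -0.51 ± 0.06 (SD, n = 3), or 1.42-fold lower, with an adjusted p of 0.155 by limma, and the second probe gave -0.47 ± 0.08 (SD, n = 3). These probes do not overlap in sequence. The SD of the first was small beside the median SD of 0.24 over the transporter probes.

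SLC2A5 (GLUT5), which carries fructose, had levels of 10.09, 10.56 and 8.99 in the short photoperiod goats and 9.62, 10.17 and 8.24 in the natural goats. Both goats of replicate 3 were lower than the other goats, and the groups overlapped although each pair moved the same way. The log2 ratios were 0.47, 0.40 and 0.74, with a mean of 0.54 ± 0.18 (SD, n = 3), or 1.45-fold, and an adjusted p of 0.163 by limma. The second probe, which shares 20 bases with the first, gave 0.48 ± 0.12 (SD, n = 3). Without the pairing by array, the adjusted p of SLC2A5 was 0.946 and 0.960.

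SLC5A1 (SGLT1), which couples glucose to sodium in gut and kidney, had log2 ratios of 0.15, -1.10 and -0.82. One array thus went against the others, and the means of its probes were -0.59 ± 0.65 and -0.61 ± 0.61 (SD, n = 3). GLUT-1 (SLC2A1), the common glucose carrier of dividing cells, had means of 0.16 ± 0.35 and 0.09 ± 0.34 (SD, n = 3), which turned to -0.035 and -0.092 without replicate 1 and were 0.34 and 0.39 with median centring. The half-width of the unadjusted 95% interval was 0.41 for each, so a mean of less than about this size could not be told from 0. A call after adjustment took more than this. The first LAT2 probe, with a mean of 1.05 and a half-width of 0.33, was not called. GLUT8 had means of -0.21 and -0.20 on overlapping probes, and SLC2A2, the carrier of liver and pancreatic islets, had a mean of -0.07 ± 0.51 (SD, n = 3), and of -0.40 with median centring.

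Water channels had 8 probes for 5 genes, and no probe named AQP3 was found. AQP5 passes water in sweat, salivary and tear glands. On its second probe the level was 13.17, 12.74 and 11.95 in the short photoperiod goats and 12.09, 12.23 and 11.37 in the natural goats. Each short photoperiod goat was above its own partner, but the groups overlapped because both goats of replicate 3 were low. The log2 ratios of 1.08, 0.52 and 0.58 gave a mean of 0.73 ± 0.31 (SD, n = 3), or 1.66-fold, with an adjusted p of 0.162 by limma. The first probe, shifted by 1 base as printed above, gave 0.70 ± 0.30 (SD, n = 3) and is a repeat of the same measurement.

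AQP1, the water channel of red cells and of the lining of small vessels, went the other way. On its first probe the level was 11.91, 11.67 and 10.89 in the short photoperiod goats and 12.46, 12.11 and 12.15 in the natural goats. The groups did not overlap, and the short photoperiod goat of replicate 3 was the lowest. The log2 ratios were -0.55, -0.44 and -1.26, with a mean of -0.75 ± 0.45 (SD, n = 3), or 1.69-fold lower, and an adjusted p of 0.186 by limma. The second probe, which differs by 1 base at each end, gave -0.74 ± 0.46 (SD, n = 3). The red cell marker HBB had a median log2 ratio of 0.29, -2.03 and 1.05 on replicates 1, 2 and 3. The 4 endothelial genes of the marker list were not found by name, and the part of red cells and vessels was not tested.

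AQP2, the vasopressin-controlled channel of the kidney, had mean log2 ratios of -0.14 ± 0.09 and -0.19 ± 0.14 (SD, n = 3), and of -0.38 and -0.42 with median centring. The short photoperiod goats lay at 8.39 to 8.61 and the natural goats at 8.63 to 8.74 on its first probe, which did not overlap but lay close together. AQP2 and AQP5 are direct neighbours in the goat RefSeq annotation (ARS1.2), with 0 genes between them, and their mean log2 ratios had opposite signs. AQP8, known from the digestive organs, had a mean of -0.25 ± 0.20 (SD, n = 3), or -0.17 with median centring, and was lower on all 3 arrays. AQP4, the water channel of astrocytes, had log2 ratios of 0.19, -0.13 and -0.91, and its mean of -0.29 turned to 0.027 without replicate 3 and was -0.46 with median centring.

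**Figure D3:**
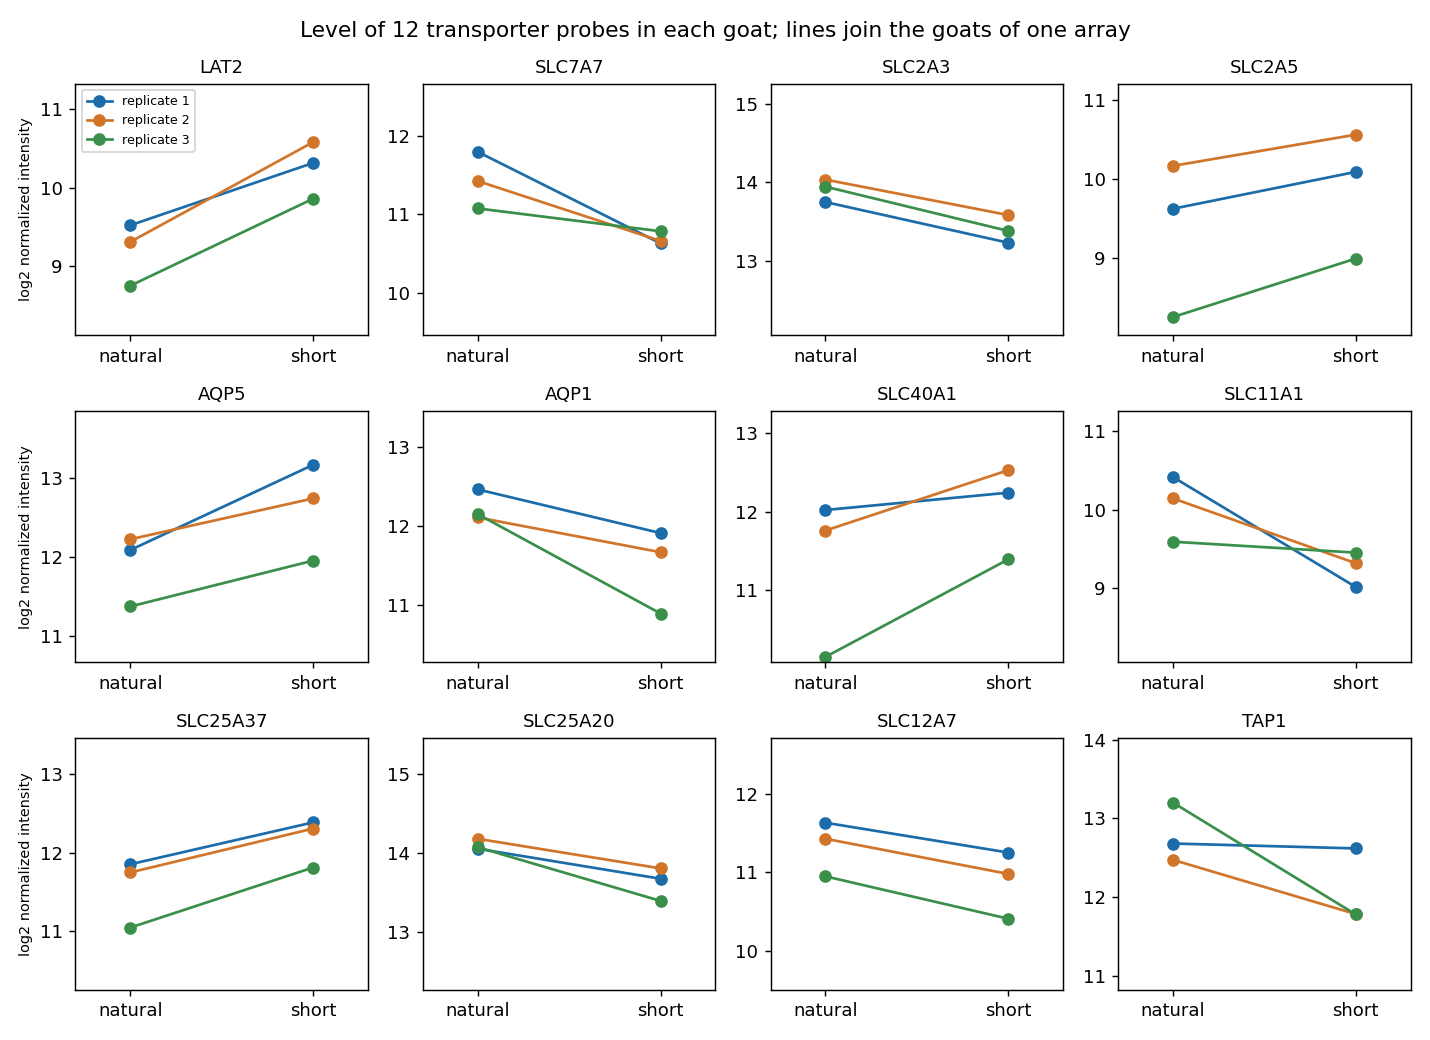
Log2 normalized intensity (vertical axis, the same span in each panel) of 12 transporter probes in each goat, natural and short photoperiod on the horizontal axis, with a line per array. LAT2 has short photoperiod goats all above natural goats, as do 6.44% of all probes. SLC7A7, SLC2A3, AQP1, SLC11A1 and SLC25A20 have them all below, as do 7.16% of all probes. The groups overlap on the other SLC11A1 probe, which is not shown. In LAT2, SLC2A5, AQP5, SLC40A1, SLC25A37 and SLC12A7 both goats of replicate 3 are the lowest of their group.

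Metal carriers included an iron exporter and an iron pump that macrophages use. SLC40A1 (ferroportin) is the exporter that releases iron from cells. Its level was 12.24, 12.53 and 11.39 in the short photoperiod goats and 12.02, 11.76 and 10.15 in the natural goats. Each short photoperiod goat was above its partner, and the groups overlapped. The log2 ratios of 0.22, 0.77 and 1.24 gave a mean of 0.74 ± 0.51 (SD, n = 3), or 1.67-fold, with an adjusted p of 0.201 by limma.

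SLC11A1 (NRAMP1) pumps iron and manganese out of the phagosome of macrophages. On one probe its level was 9.02, 9.32 and 9.46 in the short photoperiod goats and 10.42, 10.14 and 9.59 in the natural goats. The log2 ratios were -1.40, -0.82 and -0.14, so replicate 3 was close to 0. The mean was -0.79 ± 0.63 (SD, n = 3), or 1.72-fold lower, with an adjusted p of 0.225 by limma, and the second probe, which shares no bases with it, gave -0.46 ± 0.41 (SD, n = 3). The 9 leukocyte probes (CD14, CD3E, FCER1G, FCGR1A and LYZ) had a median log2 ratio of -0.37, with array medians of -0.45, -0.20 and -0.54. Their mean log2 level was 13.17 to 13.41 in the short photoperiod goats and 13.60 to 13.98 in the natural goats, which did not overlap. The part of leukocytes in the values of SLC11A1, SLC7A7, SLC2A3 and SLC40A1 was not tested.

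The zinc importer SLC39A6 was represented by 2 probes from different records that do not overlap. One had log2 ratios of 0.26, 0.38 and 0.97 with a mean of 0.54 ± 0.38 (SD, n = 3), and the other, named through a sequence cluster, had a mean of -0.05 ± 0.21 (SD, n = 3), and of -0.37 with median centring. The zinc carriers SLC39A3, SLC39A7 and SLC39A13 had means between -0.12 and -0.01. Of the metal carriers 2 probes were higher and 3 lower on all 3 arrays.

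The carriers of the inner mitochondrial membrane (the SLC25 family, of which SLC25A17 sits in peroxisomes) were higher in the mean for 9 of 11 probes. Of all tested probes, 7325 of 14977 were higher. On all 3 arrays 4 of the 11 were higher and 2 lower, and 5 had mixed signs. SLC25A37 (mitoferrin) imports iron for haem synthesis. Its level was 12.38, 12.30 and 11.81 under the short and 11.85, 11.75 and 11.05 under the natural photoperiod, and both goats of replicate 3 were the lowest of their group. All log2 ratios, 0.53, 0.56 and 0.76, were close to their mean of 0.62 ± 0.13 (SD, n = 3), or 1.53-fold, with an adjusted p of 0.155 by limma. SLC25A20 imports acylcarnitines for fatty acid oxidation, and its level was 13.67, 13.80 and 13.39 under the short against 14.05, 14.18 and 14.07 under the natural photoperiod. The groups did not overlap. Its log2 ratios were -0.38, -0.38 and -0.68, with a mean of -0.48 ± 0.18 (SD, n = 3), or 1.39-fold lower, and an adjusted p of 0.178 by limma. With median centring the mean was -0.29.

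SLC25A1, which exports citrate for fatty acid synthesis, had a mean of 0.36 ± 0.24 (SD, n = 3) and was higher on all 3 arrays. SLC25A10, the dicarboxylate carrier, had a mean of 0.35 ± 0.19 (SD, n = 3), and all short photoperiod goats lay above all natural goats, but with median centring its mean was 0.11. The ADP/ATP carriers SLC25A4 and SLC25A5 had the highest signal intensity of the transporter probes, which says nothing of the level of one gene against another, and their ratios depended on the normalization. SLC25A4 had a mean of -0.27 ± 0.09 (SD, n = 3), and 0.31 with median centring. SLC25A5 had a mean of 0.23 ± 0.29 (SD, n = 3), and 1.00 with median centring. The carriers SLC25A11, SLC25A17, SLC25A33 and SLC25A38 had means between 0.04 and 0.13 with mixed signs on the arrays, and with median centring SLC25A38 turned to -0.05 and SLC25A11 was 0.41.

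**Figure D4:**
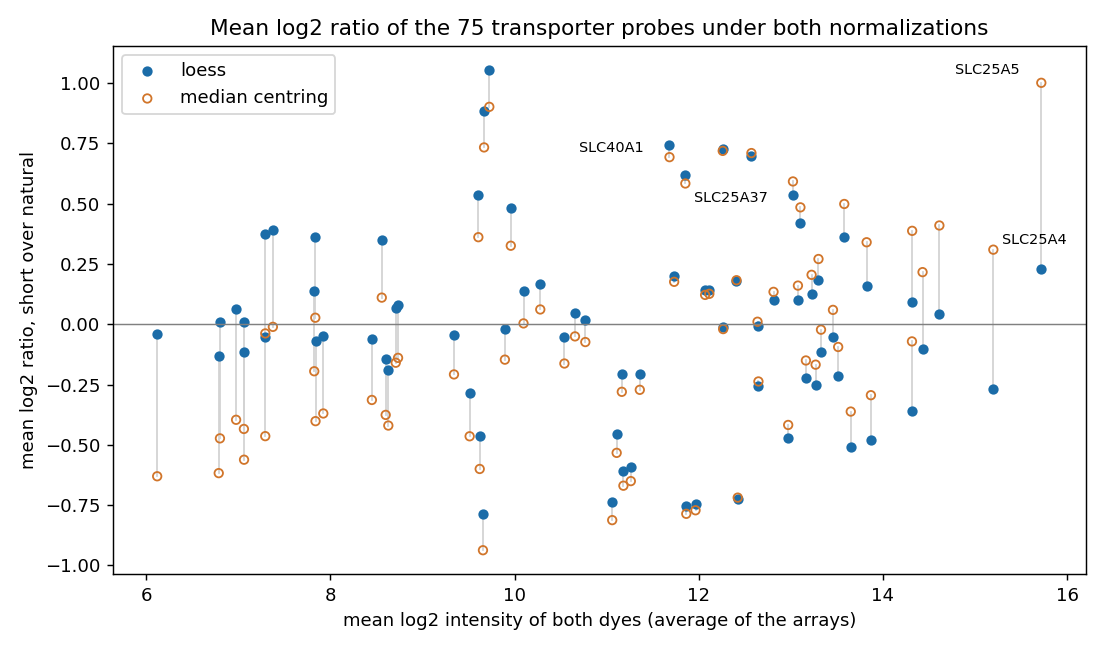
Mean log2 ratio of short over natural photoperiod (vertical axis) of the 75 transporter probes against their mean log2 intensity (horizontal axis) after loess (filled) and after median centring (hollow), with a line joining the values of a probe. Median centring moved probes by -0.59 to 0.77, dim probes downward and the brightest upward, and 14 probes changed sign, SLC25A4 among them.

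Among ion carriers 2 of 6 probes were measured throughout. SLC12A7 (KCC4), one of them, carries potassium and chloride out of cells and takes part in volume regulation. Its level was 11.25, 10.98 and 10.41 in the short photoperiod goats and 11.63, 11.43 and 10.95 in the natural goats. Each pair moved the same way while the groups overlapped. The log2 ratios were -0.38, -0.45 and -0.54, with a mean of -0.45 ± 0.08 (SD, n = 3), or 1.37-fold lower, and an adjusted p of 0.163 by limma.

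TAP1 and TAP2, the paired ABC transporters that supply peptides for MHC class I molecules, had the lowest means of the ABC class after loess. The TAP1 level was 12.62, 11.78 and 11.78 in the short photoperiod goats and 12.68, 12.47 and 13.20 in the natural goats. The groups overlapped, and the pair of replicate 1 hardly differed. The log2 ratios of TAP1 were -0.06, -0.69 and -1.42, with a mean of -0.72 ± 0.68 (SD, n = 3), or 1.65-fold lower, and an adjusted p of 0.254 by limma. TAP2 had log2 ratios of 0.25, -0.26 and -1.07 and a mean of -0.36 ± 0.67 (SD, n = 3), which was -0.071 with median centring and then no longer among the lowest of the class. In both genes replicate 1 was the highest and replicate 3 the lowest, and 1 gene lies between them in the goat annotation. The array medians of the leukocyte markers were -0.45, -0.20 and -0.54 on replicates 1, 2 and 3, and their part was not tested.

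The drug efflux pumps had smaller values. ABCG2 had a mean of 0.18 ± 0.29 (SD, n = 3) and mixed signs. The first ABCB1 probe printed above gave 0.20 ± 0.19 (SD, n = 3) and the second -0.04 ± 0.24 (SD, n = 3), or -0.21 with median centring. They share 40 of 60 bases, and their signs differed on replicate 1 and on replicate 3. The measured CFTR probe had a mean of 0.14, and -0.19 with median centring. ABCF1, a soluble ABC protein that acts in translation, had a mean of -0.10, and 0.22 with median centring.

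The remaining classes had few probes. SLC16A1 (MCT1), which carries lactate, had means of 0.17 ± 0.36 and 0.18 ± 0.21 (SD, n = 3), the first of them 0.061 with median centring. The lysosomal sialic acid exporter SLC17A5 was lower on all 3 arrays on both probes, with means of -0.22 ± 0.04 and -0.21 ± 0.08 (SD, n = 3), the second of them -0.094 with median centring, adjusted p-values of 0.300 and 0.322 by limma, and no shared bases. SLC35E3, a relative of the nucleotide sugar carriers, had log2 ratios of -0.01, 0.66 and 0.61, while SLC35A4 and SLC35C2 had means of 0.10 and -0.05, the latter 0.06 with median centring. The noradrenaline carrier SLC6A2 had a mean of 0.02. SLC9A3R1, which the rule found by its name, is a scaffold that binds carriers and is no carrier itself, and it had a mean of 0.14 on both probes.

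Agreement between the probes of a gene was read from the 21 genes with 2 probes. Both were measured throughout for 17 of them, and the means had the same sign in 14. The median difference between the means, with the sign left off, was 0.04 and the largest was 0.59, for SLC39A6. Of the 17 pairs, 12 overlap in sequence, so their agreement counts little as a second measurement. The 5 pairs without overlap were those of SLC2A3, SLC11A1, SLC16A1, SLC17A5 and SLC39A6, and the signs agreed in all of these but SLC39A6.

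Of 32 genes listed for a role in skin, hair, pigment cells or basic supply, 14 were among the genes found by the member rule. The array was not searched for the rest in another way. Of the 14 genes 0 passed limma's test, beside 0.00668% of all probes. Values are given above for 12 of these, GLUT-1, SLC2A3, SLC5A1, LAT1, SLC38A2, SLC11A1, SLC40A1, SLC16A1, SLC25A4, SLC25A5, ABCB1 and ABCG2, and EAAT1 was not measured throughout. The unadjusted p by limma was under 0.05 on both probes of SLC2A3 and SLC11A1 and on the probes of SLC40A1 and SLC25A4, and on no probe of the other genes with values. Of all probes 18.5% had such a p. The mean of SLC25A4 turned to 0.31 with median centring.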

How the data were processed

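Skin of 6 goats was measured on 3 Agilent sheep arrays, 1 goat of each group per array. The deposited scanner files hold spot and local background intensity in both dyes, obtained by the authors with Feature Extraction 10.7.3.1 and not normalized, and a log10 ratio of background-subtracted, dye-normalized signals. A table of log2 ratios (Cy5 over Cy3) that the authors deposited for the whole series equalled those of the processed signals for at least 99.96% of 14958 probes with 1 spot, to within 0.001.

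Ratios were computed in R 4.3.3 with limma 3.58.1: normexp (offset 50), loess within arrays, spots with an outlier flag left out (38, 65 and 91 on replicates 1, 2 and 3), and spots of 1 probe averaged. Probes measured on 2 or 3 arrays, 14977 in all, were tested against 0 with lmFit and eBayes, two-sided, with Benjamini-Hochberg adjustment over all of them and a threshold of 0.05. All 75 transporter probes were among them, and class medians and counts use all 75. The p-values rest on these 3 pairs of goats only, and eBayes draws the variance of each probe toward that of all tested probes. For a probe with a small SD, such as the first of SLC2A3, the standard error used (0.096) therefore exceeds the SD of its own ratios (0.057). The number of arrays limits the precision. A two-sided sign-flip test of 3 arrays cannot go below 0.25. Goats of 1 array share a parent per the paper. The correlation of both dyes within spots was 0.619, which cannot separate kinship from effects of the shared spot. Levels come from loess followed by Aquantile normalization. The code of the test was also run on simulated independent ratios, with larger shifts than the transporter means. That run lends no support to any value here. Marker lists were summarised by the median log2 ratio of their measured probes and by the mean of their log2 levels.

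Named are all aquaporins, probes with a 2-fold mean change, the 2 most raised and 2 most lowered probes of each main class that were measured throughout and moved the same way on every array, and 32 genes with a textbook role. Other members are given for completeness, and 2 of the 75 probes are counted but not reported here by name. The members and lists were chosen with earlier results of these data known. Of 54 gene symbols, 52 were found in the goat RefSeq table (ARS1.2). Alternatives were other background corrections, median centring, the separate channels, the unpaired fit, both deposited ratios, filters, flags kept, eBayes with trend, gene averages and each array left out. Figures were drawn with matplotlib 3.10.9.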

Additional observations from a re-analysis of the deposited data

How the results depend on the processing

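Calls at an adjusted p under 0.05 were 0 in limma under all alternatives but a pair. Median centring gave 11 calls (6 higher, 5 lower), or 14.7% of transporter probes beside 12.6% of all probes, and 35 unadjusted p-values under 0.05, where 34.2% of all probes had one. It called LAT2 (0.73 and 0.90), AQP5 (0.72 and 0.71), SLC25A37 (0.58), SLC25A5 (1.00), SLC7A7 (-0.81), SLC12A7 (-0.53) and 3 probes not measured throughout, and set the medians to -0.074 over all transporter probes, -0.16 for amino acids, -0.50 for ions, -0.40 for water and -0.19 for ABC transporters. The separate channels gave 2 calls, both of LAT2, beside 1.1% of all probes. With the pairing left out there were 0 calls and 11 unadjusted p-values under 0.05, beside 22 with it, and 7.3% of all probes had one, beside 18.5% with it. The ion median, which rests on 4 dim probes of 6, was -0.094 without an offset, -0.37 with Feature Extraction's log ratio and -0.37 with the authors' value table, -0.19 without dim probes and -0.025 with outlier spots kept. The ABC median was -0.061 in both of the authors' ratios and 0.075 with probes of a gene averaged. The 2-fold count was 2 in the authors' value table and 0 with probes averaged. Leaving out 1 array gave 0 to 3 such probes and medians of -0.050 to 0.055 over all transporters, -0.071 to 0.17 for amino acids, -0.33 to -0.092 for sugars, 0.092 to 0.22 for mitochondrial carriers, -0.22 to -0.17 for water, -0.091 to -0.023 for ions, -0.12 to -0.026 for metals and -0.0076 to 0.065 for ABC transporters. Direction turned with median centring for SLC25A4 (0.31), without replicate 1 for both GLUT-1 probes (-0.035 to 0.31 and -0.092 to 0.25 over the arrays left out), without replicate 3 for ABCB1 (-0.17 to 0.073), AQP4 (-0.52 to 0.027) and SLC39A6 (-0.15 to 0.063), and with probes averaged for ABCB1 (0.078) and SLC39A6 (0.24). Of 38 named probes, 32 kept 1 direction in all settings. Apart from the settings' own construction, the cause was not tested. With positive and significant signal as the criterion 72 probes were detected, and with at least 2 arrays in each dye 68.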
